A study of Rattus norvegicus with 6 samples.

Results

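The genes of MHC class II antigen presentation were followed in bulk RNA of rat intervertebral discs. The 8 genes were Cd74, Ciita, RT1-Da, RT1-Db1, RT1-Ba, RT1-Bb, RT1-DMa and RT1-DMb. They were taken by gene name from the 30562 genes of the deposited count table, and each name matched 1 gene. RT1 is the rat major histocompatibility complex. The study punctured tail discs of 12-week-old male wild-type Sprague-Dawley rats with a needle and asked how an injected carrier changed the degenerating disc. Control holds 3 libraries of punctured discs. The sample labels call these rats untreated, and the study's methods describe injections of PBS. The 3 other libraries, called treated-labelled below, are labelled AF-PTK@LEV@SPP1, a hybrid of liposomes and bacterial outer membrane vesicles that carries siRNA against Spp1 and a peptide that binds annulus fibrosus. It was given in 10 µL at 1 mg/kg of siRNA, beginning 24 h after puncture. Puncture and age were shared by both groups. The labels give 14 days of treatment and the methods give 8 weeks. Neither a carrier without siRNA nor an unpunctured disc was analysed here, so the effects of carrier, peptide and siRNA cannot be told apart.

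MHC class II molecules are pairs of an alpha and a beta chain that present peptides from endocytosed protein to CD4 T cells. The invariant chain, Cd74, guides new pairs to the endosome, where proteases degrade it and the DM pair loads peptide. The co-activator Ciita drives these genes, mainly in B cells, dendritic cells and macrophages, and interferon-gamma induces it in other cells. The healthy disc is largely avascular and holds few such cells, and immune cells enter after injury.

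The libraries held 15560728 to 17942989 counts. Levels are given as CPM after normalisation by the trimmed mean of M-values (TMM). At these depths 3 counts, taken as the smallest measurable level, were 0.154 to 0.193 CPM. Control replicates 2 and 3 stood apart from the other libraries in one respect. The variance between them was 1.33 times counting noise, while the 5 other pairs within a group lay at 51.3 to 107 times. They were therefore summed and counted as 1 sample, which left 2 Control and 3 treated-labelled samples. An exact two-sided permutation test of 3 against 2 samples cannot go below p = 0.10.

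Spp1, the target of the siRNA, was examined first. It stood at 8122 CPM in Control replicate 1, 4411 in replicate 2 and 4417 in replicate 3. In the treated-labelled libraries it stood at 8054, 6903 and 8461 CPM in replicates 1 to 3. Spp1 was thus not lower in any treated-labelled library than in Control replicates 2 and 3, and the groups overlapped (log2 fold change 0.31 ± 0.37 (SE), adjusted p = 0.628). With each distinct sample left out in turn, its log2 fold change ran from −0.07 to 0.81 and it was not called. Since lower Spp1 was not seen, every direction below is a direction between libraries as labelled. Log2 fold changes are treated-labelled over Control from edgeR, and adjusted p-values were corrected over all 15537 genes tested.

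The labels describe macrophages of mice sorted by F4/80 and CD11b, whereas the methods describe whole disc of rats. Elsewhere the labels name rats, and the gene identifiers are those of the rat. The 7 disc and cartilage markers with a row in the table summed to 51219 CPM in Control replicate 1 and 74834 CPM in the mean of replicates 2 and 3. They summed to 100973, 72136 and 93180 CPM in the treated-labelled libraries. Collagen I, Col1a1, held 60.6% of those counts. The 14 macrophage and monocyte markers summed to 503 to 1490 CPM over the 6 libraries. The RNA was therefore treated as that of mixed disc tissue. In such tissue, fewer cells of a type and less RNA per cell cannot be told apart.

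All 8 class II genes passed the filter on low counts. Of these, 0 were called lower and 0 higher at an adjusted p under 0.05, against 2.57% of all tested genes called lower and 1.13% called higher. edgeR gave 0 of the 8 an unadjusted p under 0.05. limma-voom also called 0 and had 0 at that unadjusted level. DESeq2 called 0 and gave 3 such a p, namely RT1-Da, RT1-Ba and RT1-DMb. Over all 15537 tested genes, 3941 had such a p with edgeR, 3982 with limma-voom and 4395 with DESeq2. With the 6 libraries kept as 6 samples, edgeR called 0 of the 8 and gave 1, RT1-Da, an unadjusted p under 0.05. In that fit 9.93% of all genes were called lower and 8.20% higher, and 5503 of 15042 had such a p. With 5 distinct samples and no filter beyond a count above 0, edgeR gave 2 of the 8 such a p (4361 of 22112 genes). Without treated-labelled replicate 2 it also gave 2 (3109 of 15208 genes). The median log2 fold change of the 8 genes was −0.34, beside 0.05 over all tested genes. Of the 8, 6 had a log2 fold change below 0, and the RT1-B pair lay above it. RT1-Da and RT1-DMb were lower in every treated-labelled sample than in either Control sample, and 0 genes were higher in every one. Over all tested genes, 21.9% showed such a gap downwards and 23.9% upwards.

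**Figure D1:**
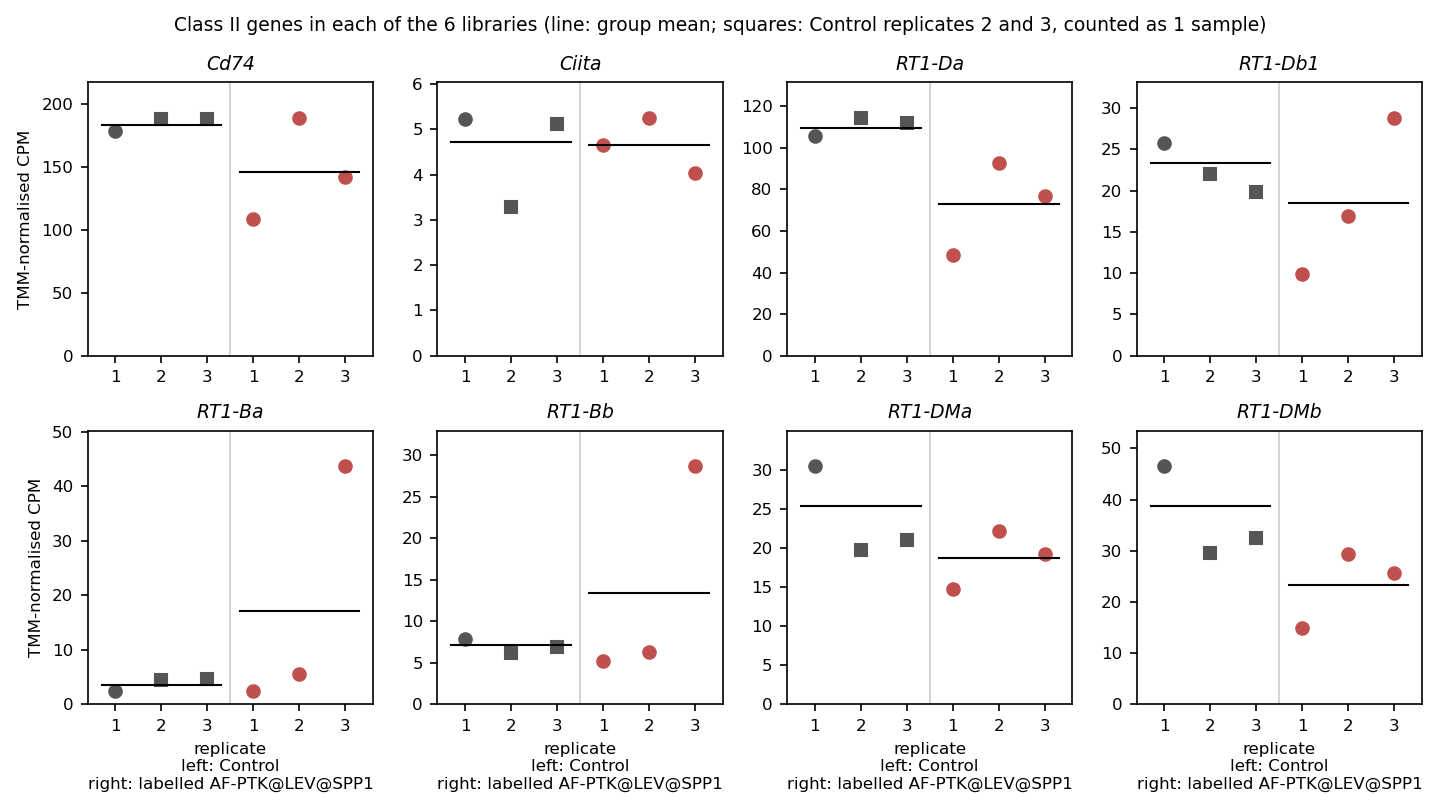
TMM-normalised CPM of the 8 class II genes in each of the 6 libraries, with Control on the left and treated-labelled on the right of each panel. Lines are group means over distinct samples, and squares are Control replicates 2 and 3, which count as 1 sample. RT1-Ba reached 43.6 CPM and RT1-Bb 28.7 CPM in treated-labelled replicate 3, far above the 5 other libraries.

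RT1-Da and RT1-Db1 encode the alpha and beta chain of RT1-D, the rat counterpart of human HLA-DR. RT1-Da (ENSRNOG00000032844) was measured at 106, 114 and 112 CPM in Control replicates 1 to 3. It was measured at 48.6, 92.9 and 76.8 CPM in the treated-labelled replicates 1 to 3. Each treated-labelled library lay below each Control library, and replicate 1 was the lowest. The means were 109 ± 5.14 CPM (SD, n = 2) and 72.7 ± 22.4 CPM (SD, n = 3). The log2 fold change was −0.60 ± 0.28 (SE), with a 95% interval of −1.30 to 0.10 and an adjusted p of 0.247. The exact permutation test gave p = 0.20. A large decrease and no change at all both lie inside this interval.

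RT1-Db1 (ENSRNOG00000033215) did not show the same gap between groups. Its level was 25.8, 22.0 and 19.8 CPM in Control. In the treated-labelled libraries it was 9.88, 16.9 and 28.8 CPM. Replicate 3 was thus the highest of the 6 libraries and replicate 1 the lowest, and the groups overlapped (log2 fold change −0.34 ± 0.44 (SE), adjusted p = 0.660). Without treated-labelled replicate 3 the log2 fold change was −0.80, with an adjusted p of 0.308. Without replicate 1 it was −0.07, with an adjusted p of 0.900, and without Control replicate 1 it was −0.19, with an adjusted p of 0.876. The ratio of the RT1-D chains stood apart in replicate 3. There, 37.5 RT1-Db1 counts were present per 100 RT1-Da counts, compared with 17.7 to 24.4 in the 5 other libraries.

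RT1-Ba and RT1-Bb encode the chains of RT1-B, the counterpart of human HLA-DQ. RT1-Ba (ENSRNOG00000000451) was low in Control, at 2.41, 4.37 and 4.64 CPM. It was equally low in treated-labelled replicates 1 and 2, at 2.35 and 5.43 CPM, and reached 43.6 CPM in replicate 3. In counts these were 47, 68 and 76 in Control and 40, 90 and 765 in the treated-labelled libraries. A single library thus carried the group mean of 17.1 ± 23 CPM (SD, n = 3), against 3.46 ± 1.48 CPM (SD, n = 2) in Control. The log2 fold change of 2.28 ± 1.34 (SE) had an interval of −1.12 to 5.68 and an adjusted p of 0.340. Without replicate 3 it was 0.16, with an adjusted p of 0.912.

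RT1-Bb (ENSRNOG00000032708) followed the same pattern. It was measured at 7.81, 6.11 and 6.84 CPM in Control and at 5.17, 6.34 and 28.7 CPM in the treated-labelled replicates. Replicate 3 again stood far above the 5 other libraries, which did not separate by group. The log2 fold change was 0.90 ± 0.82 (SE), with an adjusted p of 0.527. It turned to −0.31 without replicate 3, with an adjusted p of 0.566. Relative to RT1-Da, the shift in that library was large. RT1-Ba stood at 56.8 counts per 100 RT1-Da counts there and at 2.28 to 5.85 in the others. RT1-Bb stood at 37.3 per 100 there and at 5.35 to 10.7 in the others.

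The 6 RT1 genes among the 8 lie together on chromosome 20, between 4512911 (start of RT1-Da) and 4710432 (end of RT1-DMa) in the coordinates of the count table, whose build is not given in the sources used here. Among the 23 tested genes with RT1 names, RT1-Ba and the class I gene RT1-CE15 were at least 2 log2 units higher in treated-labelled replicate 3 than in the next library. The same gap was found for 5 of 15042 genes that passed the filter over 6 libraries (0.0332%). It was looked for because RT1-Ba had been seen to be high there, so the count partly restates that value. RT1-CE15 and RT1-CE16, a second class I gene, were chosen after their values were seen. RT1-CE15 had 12, 11 and 19 counts in Control and 28, 28 and 180 in the treated-labelled replicates. The row named RT1-CE16 that overlaps it (ENSRNOG00000065254) had 742 counts in Control replicate 1, 4 in replicate 2 and 11 in replicate 3. That row had 15, 14 and 2443 counts in treated-labelled replicates 1 to 3, so Control replicate 1 and treated-labelled replicate 3 were alike in being high. Another row named RT1-CE16 (ENSRNOG00000047706) had 43, 25 and 30 counts in Control and 10, 21 and 31 in the treated-labelled replicates. Genes of this region differ in sequence and number between rats and have near-identical copies, and the use of reads shared by copies was not given in the sources used here. The counts of single RT1 genes are thus uncertain, and the part of sequence differences between the animals was not tested.

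The invariant chain gene Cd74 (ENSRNOG00000018735, chromosome 18) had 46.7% of the counts of the 8 genes. It was measured at 179, 189 and 189 CPM in Control and at 108, 189 and 142 CPM in the treated-labelled replicates 1 to 3. Replicate 1 was low, and replicate 2 stood at the Control level, so the groups overlapped. The means were 184 ± 6.90 CPM (SD, n = 2) and 147 ± 40.5 CPM (SD, n = 3). The log2 fold change was −0.34 ± 0.25 (SE), with an interval of −0.96 to 0.29 and an adjusted p of 0.433. It was −0.19 without treated-labelled replicate 1 (adjusted p = 0.560) and −0.56 without treated-labelled replicate 2 (adjusted p = 0.217). Cd74 was also set beside RT1-Da within each library. There were 169, 165 and 169 Cd74 counts per 100 RT1-Da counts in Control. The treated-labelled libraries had 223, 204 and 185, all above Control (exact two-sided permutation p = 0.20).

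The pair RT1-DMa and RT1-DMb encodes the peptide-loading chaperone of the endosome. RT1-DMb (ENSRNOG00000049491) was measured at 46.5, 29.6 and 32.5 CPM in Control and at 14.9, 29.3 and 25.6 CPM in the treated-labelled replicates. All treated-labelled values lay below all Control values, but replicate 2 was only just below Control replicate 2. The log2 fold change was −0.74 ± 0.33 (SE), with an interval of −1.58 to 0.09 and an adjusted p of 0.232. The exact permutation p was 0.10, the smallest that 3 against 2 samples allow. RT1-DMa (ENSRNOG00000066773) stood at 30.4, 19.8 and 21.0 CPM in Control and at 14.7, 22.2 and 19.3 CPM in the treated-labelled libraries. Control replicate 1 was the highest for each of the pair, and the groups overlapped for RT1-DMa (log2 fold change −0.45 ± 0.25 (SE), adjusted p = 0.319). Without Control replicate 1 the log2 fold change was −0.14 for RT1-DMa (adjusted p = 0.791) and −0.43 for RT1-DMb (adjusted p = 0.562). The count of RT1-DMb per 100 RT1-DMa was 150 to 155 in Control and 102, 132 and 133 in the treated-labelled libraries (exact two-sided permutation p = 0.10, the smallest possible). This ratio was 1 of 9 examined.

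Of the 6 names listed as other class II chains, 4 had counts in the table, and 3 of them passed the filter. They include the DO pair, which restrains DM. None of the 3 was called by edgeR, limma-voom or DESeq2, and 0 had an unadjusted p under 0.05 in any of them. Their median log2 fold change was 0.68, so these low genes lay on the other side of 0 from RT1-Da. It was 0.41 without Control replicates 2 and 3 and 0.47 without treated-labelled replicate 2. RT1-DOb, with the most counts of them, had 31, 22 and 16 counts in Control and 19, 35 and 30 in the treated-labelled replicates (log2 fold change 0.24 ± 0.40 (SE), adjusted p = 0.741). RT1-DOa, chosen after its values were seen, was higher in every treated-labelled library than in every Control library. Its log2 fold change was 0.79 ± 0.40 (SE), with an adjusted p of 0.281.

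Ciita (ENSRNOG00000002659, chromosome 10), the master co-activator of the class II genes, was low in all libraries. It had 102, 51 and 84 counts in Control, or 5.24, 3.28 and 5.13 CPM. The treated-labelled libraries had 79, 87 and 71 counts, or 4.65, 5.25 and 4.05 CPM. The means were 4.72 ± 0.731 CPM (SD, n = 2) and 4.65 ± 0.601 CPM (SD, n = 3), and the groups overlapped fully. The log2 fold change of −0.03 ± 0.23 (SE) had an interval of −0.63 to 0.56 (adjusted p = 0.942). Its sign changed with the handling of the Control pair and was 0.03 with the 6 libraries kept.

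Ciita acts through factors that sit on a promoter element of class II genes, the SXY module. The 7 genes of this list encode the RFX complex, the NF-Y complex and Creb1. edgeR, limma-voom and DESeq2 called 0 of 7, and 0 had an unadjusted p under 0.05 in any of them. The median log2 fold change was 0.10. It was 0.02 without treated-labelled replicate 3 and 0.05 without Control replicate 1. Creb1, with the most counts, ranged from 34.1 to 36.3 CPM in Control and from 33.3 to 44.7 CPM in the treated-labelled libraries (log2 fold change 0.16 ± 0.15 (SE), adjusted p = 0.531). Over the 7 genes the log2 fold changes ran from −0.02 to 0.16.

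Interferon-gamma reaches Ciita through its receptor, the kinases Jak1 and Jak2 and transcription factors. Of 10 names, 8 had a row and 7 were tested. edgeR called 0 of the 7 and limma-voom 0, and each gave 4 an unadjusted p under 0.05 (3941 and 3982 of all 15537 genes). DESeq2 called 4 lower, beside 1440 of 15537 genes, and edgeR with the 6 libraries kept called 3 lower, beside 9.93% of all genes. The median log2 fold change was −0.55. Jak1, with the most counts, was 239, 247 and 246 CPM in Control and 227, 242 and 222 CPM in the treated-labelled libraries (log2 fold change −0.09 ± 0.12 (SE), adjusted p = 0.682). The 4 genes with an unadjusted p under 0.05, chosen after their values were seen, were the feedback inhibitor Socs1 (log2 fold change −1.88), the receptor chains Ifngr2 (−0.67) and Ifngr1 (−0.55) and the kinase Jak2 (−0.65). Each was lower in every treated-labelled library than in every Control library, with adjusted p-values of 0.0710 to 0.139. Over all tested genes, 21.9% showed a gap downwards between the groups. The transcription factors Irf1 (0.43) and Irf8 (0.18) lay above 0, with groups that overlapped. The cytokine itself, Ifng, did not pass the filter and was chosen after its values were seen. It had 4 counts in Control replicate 3 and 0 counts in the 5 other libraries.

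Endosomal proteases degrade the invariant chain and cut antigens to peptides. The list of 10 genes also held the thiol reductase Ifi30 and the protease inhibitor Cst3. edgeR called 3 of 10 lower and 0 higher, against 2.57% of all tested genes called lower. Of the 10, 7 had an unadjusted p under 0.05, beside 3941 of all 15537 tested genes. The median log2 fold change of the list was −0.85, and only Cst3 lay above 0. Legumain, Lgmn, an asparaginyl endopeptidase, was 348, 319 and 307 CPM in Control. It fell to 153, 161 and 148 CPM in the treated-labelled libraries. The groups were separated by a wide gap (log2 fold change −1.11 ± 0.12 (SE), adjusted p = 0.0231).

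Cathepsin D, Ctsd, an aspartyl protease, was 494, 591 and 603 CPM in Control. The treated-labelled libraries held 224, 264 and 254 CPM. Every one was lower than every Control library (log2 fold change −1.15 ± 0.16 (SE), adjusted p = 0.0345). Cathepsin Z, Ctsz, a carboxypeptidase, was 345 CPM in Control replicate 1 and 193 and 192 CPM in replicates 2 and 3. It was 43.3, 72.4 and 60.5 CPM in the treated-labelled libraries (log2 fold change −2.20 ± 0.33 (SE), adjusted p = 0.0387). With a block on replicate number and the 6 libraries kept, Ctsz was not called (log2 fold change −2.02, adjusted p = 0.0695).

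Cathepsin B, Ctsb, had the most counts of the list. It was 1638, 2012 and 1999 CPM in Control and 955, 844 and 950 CPM in the treated-labelled libraries. The groups did not overlap, but the call was missed (log2 fold change −1.0 ± 0.19 (SE), adjusted p = 0.0582). Cathepsin S, Ctss, which removes the last part of the invariant chain in many antigen-presenting cells, was chosen after its values were seen. It was 191, 128 and 130 CPM in Control and 47.7, 76.7 and 64.7 CPM in the treated-labelled libraries, without overlap. Its log2 fold change was −1.35 ± 0.26 (SE), with an adjusted p of 0.0601. A gap downwards between the groups was seen in 21.9% of all tested genes. DESeq2 and edgeR with the 6 libraries kept each called 7 of the 10 lower. Over all genes, DESeq2 called 1440 of 15537 lower and edgeR with the 6 libraries kept called 9.93%. When any 1 of the 5 distinct samples was left out, 0 of 10 were called and 6 or 7 had an unadjusted p under 0.05. Lgmn then ranged from −1.19 to −1.04 in log2 fold change, with adjusted p-values of 0.0611 to 0.148. Without a sample, Ctsd lay at −1.29 to −1.01 (adjusted p = 0.0597 to 0.161) and Ctsz at −2.57 to −1.73 (adjusted p = 0.0727 to 0.164).

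**Figure D2:**
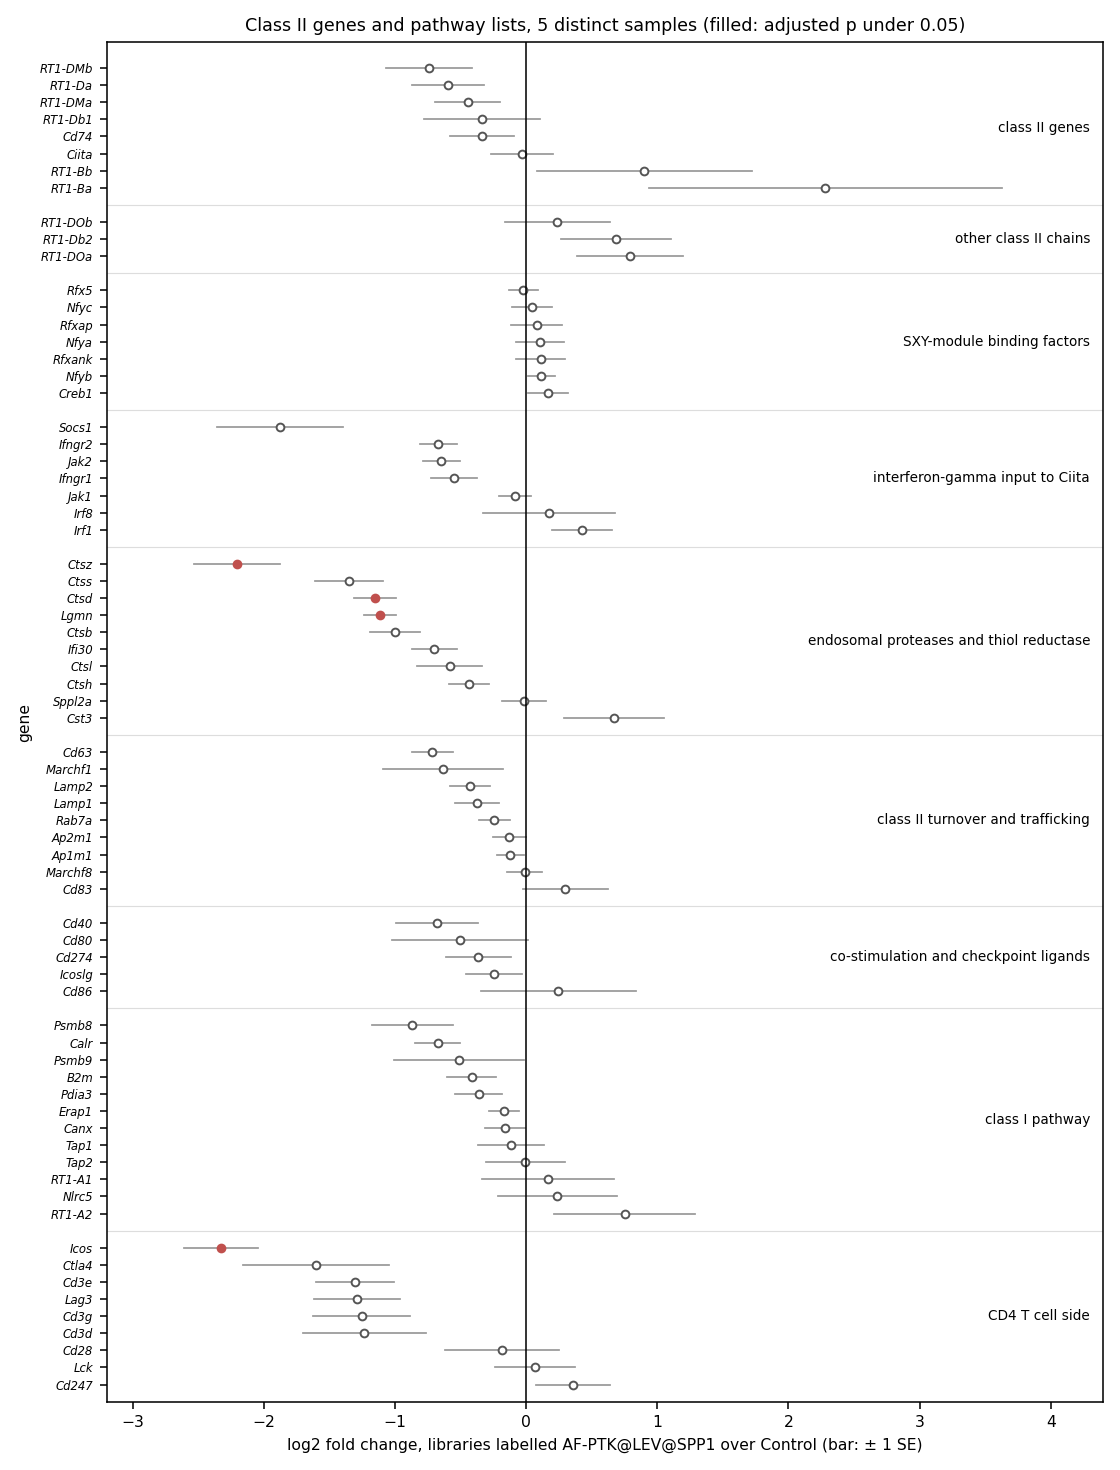
Log2 fold change of each tested class II gene and pathway gene between treated-labelled and Control over 5 distinct samples, with bars of 1 SE. Filled points, at an adjusted p under 0.05, are Lgmn, Ctsd, Ctsz and Icos, all below 0, and the class II genes spread from −0.74 for RT1-DMb to 2.28 for RT1-Ba.

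Class II turnover and trafficking was covered by 9 genes of ubiquitin ligases, adaptors and lysosomal membrane proteins. edgeR and limma-voom called 0 of 9, with 2 at an unadjusted p under 0.05 in each, and DESeq2 called 2 lower. The median log2 fold change was −0.24. Lamp1, a lysosomal membrane protein and the gene with the most counts, was 468, 554 and 578 CPM in Control and 440, 371 and 393 CPM in the treated-labelled libraries (log2 fold change −0.38 ± 0.17 (SE), adjusted p = 0.233).

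Co-stimulation and checkpoint ligands act beside the class II molecule on the T cell. edgeR, limma-voom and DESeq2 called 0 of the 5 tested, with 0 at an unadjusted p under 0.05 in each. Icoslg, the ligand of Icos, was 15.1, 15.6 and 12.5 CPM in Control and 9.47, 13.2 and 14.5 CPM in the treated-labelled libraries. The groups overlapped (log2 fold change −0.24 ± 0.22 (SE), adjusted p = 0.513).

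The class I pathway, which presents cytosolic peptides, had 12 tested genes with a median log2 fold change of −0.17. This median was −0.06 without Control replicate 1, where 6 genes lay below 0 and 6 above. edgeR and limma-voom called 0, with 2 at an unadjusted p under 0.05 in each, and DESeq2 called 1 lower. Calreticulin, Calr, with the most counts, was 953, 1013 and 1004 CPM in Control and 681, 548 and 624 CPM in the treated-labelled libraries. The groups did not overlap (log2 fold change −0.68 ± 0.17 (SE), adjusted p = 0.0942).

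On the CD4 T cell side, edgeR called 1 of 9 tested genes lower and 0 higher. Of the 9, 6 had an unadjusted p under 0.05, beside 3941 of all 15537 tested genes. The median log2 fold change was −1.26. DESeq2 called 3 lower, and edgeR with the 6 libraries kept called 4 lower. Icos, a co-stimulatory receptor of activated T cells, was 3.70, 3.80 and 4.88 CPM in Control. It fell to 0.706, 0.845 and 0.855 CPM in the treated-labelled libraries, or 12, 14 and 15 counts (log2 fold change −2.33 ± 0.28 (SE), adjusted p = 0.0276). Lck, the kinase with the most counts of the list, was 5.50, 3.60 and 3.91 CPM in Control and 3.65, 5.31 and 5.64 CPM in the treated-labelled libraries (adjusted p = 0.908). The 5 other genes with an unadjusted p under 0.05 were chosen after their values were seen. They were the T cell receptor chains Cd3d, Cd3e and Cd3g (log2 fold change −1.24, −1.30 and −1.26) and the inhibitory receptors Ctla4 (−1.60) and Lag3 (−1.29). Each was lower in every treated-labelled library than in every Control library, with adjusted p-values of 0.0800 to 0.185. Cd247, another receptor chain also chosen so, was 2.52, 2.06 and 1.53 CPM in Control and 2.76, 2.84 and 2.68 CPM in the treated-labelled libraries, higher without overlap (log2 fold change 0.36, adjusted p = 0.471). When any 1 distinct sample was left out, Icos was no longer called (log2 fold change −2.45 to −2.20, adjusted p = 0.0610 to 0.147). Cd4 was not analysed here. Over the 8 pathway lists, 4 of 62 tested genes were called lower and 0 higher, and 43 had a log2 fold change below 0. Over all tested genes 2.57% were called lower. DESeq2 called 17 of the 62 lower, beside 1440 of all 15537 genes. edgeR with the 6 libraries kept called 17 lower, beside 9.93% of all genes, and edgeR with any 1 distinct sample left out called 0.

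Markers of the cells that carry class II molecules were set beside these values. Of the 14 macrophage and monocyte markers, edgeR called 2 lower and 0 higher, against 2.57% of all tested genes called lower. DESeq2 called 5 of the 14 lower, beside 1440 of 15537 genes. These markers had a median log2 fold change of −0.77. The median was −0.39 without Control replicate 1 and −1.10 without Control replicates 2 and 3. Their sum was 1490 CPM in Control replicate 1 and 976 CPM in the mean of replicates 2 and 3. It was 503, 870 and 718 CPM in treated-labelled replicates 1 to 3, so replicate 1 was the lowest, as for Cd74 and RT1-Da.

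Among these markers Cd14, a co-receptor for lipopolysaccharide, was 152, 134 and 134 CPM in Control and 38.2, 36.1 and 41.5 CPM in the treated-labelled libraries (log2 fold change −1.89 ± 0.12 (SE), adjusted p = 0.0119). Cd68, a lysosomal protein of macrophages, was 150, 112 and 116 CPM in Control and 28.5, 42.1 and 30.9 CPM in the treated-labelled libraries (log2 fold change −1.97 ± 0.22 (SE), adjusted p = 0.0231). Csf1r, the receptor of the macrophage growth factor and the marker with the most counts, was 262, 145 and 148 CPM in Control and 104, 111 and 101 CPM in the treated-labelled libraries (log2 fold change −0.96 ± 0.25 (SE), adjusted p = 0.102). All treated-labelled libraries lay below all Control libraries for these 3 markers. Cd163, a scavenger receptor chosen after its values were seen, was the 1 marker above 0. It was 54.0, 29.5 and 29.0 CPM in Control and 47.2, 143 and 88.3 CPM in the treated-labelled libraries (adjusted p = 0.246). Left-out samples ended the call of Cd68 in 5 of 5 cases (log2 fold change −2.16 to −1.77, adjusted p = 0.0565 to 0.139). Cd14 was called in 2 of 5 cases (log2 fold change −1.98 to −1.81, adjusted p = 0.0272 to 0.130).

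Cd74 was also set beside Cd68, which was picked because it was called lower, so a difference in this ratio largely restates that call. Cd74 stood at 119, 169 and 162 counts per 100 Cd68 counts in Control. In the treated-labelled libraries it stood at 380, 449 and 459 counts per 100. Against Csf1r, the marker with the most counts, the ratio overlapped, with 68.4, 130 and 128 Cd74 counts per 100 in Control and 104, 170 and 141 in the treated-labelled libraries. The part of macrophage content in the class II values was not tested.

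Of 10 tested dendritic cell markers, edgeR called 1 lower and 0 higher, against 2.57% of all tested genes called lower. The list had a median of 0.08 in log2 fold change. This median was 0.45 without Control replicate 1, −0.34 without Control replicates 2 and 3 and −0.15 without treated-labelled replicate 2. Ccr7, the receptor that guides mature dendritic cells and some T cells to lymph nodes, was 3.49, 2.51 and 3.30 CPM in Control. It fell to 0.470, 0.603 and 0.684 CPM in the treated-labelled libraries (log2 fold change −2.44 ± 0.33 (SE), adjusted p = 0.0322). This call was lost when any 1 distinct sample was left out (log2 fold change −2.57 to −2.32, adjusted p = 0.0705 to 0.150). The list summed to 127 CPM in Control replicate 1, 108 CPM in the mean of replicates 2 and 3, and 108, 122 and 114 CPM in the treated-labelled libraries. Tcf4, which many other cells also express, held 41.9% of its counts and was 43.1 to 52.8 CPM over the 6 libraries.

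B cells carry class II molecules without stimulation, and their markers separated the Control samples from each other. The 8 markers summed to 88.8 CPM in Control replicate 1 and 41.1 CPM in the mean of replicates 2 and 3. In treated-labelled replicates 1 to 3 they summed to 66.8, 115 and 147 CPM, so replicate 3, which was highest for RT1-Ba, RT1-Bb and RT1-Db1, was also highest here. edgeR, limma-voom and DESeq2 called 0 of the 8, and each gave 1 an unadjusted p under 0.05. All 8 lay above 0 with edgeR, and their median log2 fold change was 1.23, or 3.31 without Control replicate 1 and 0.27 without Control replicates 2 and 3. Ebf1, with 44.4% of the counts, is also expressed in stromal cells and was 33.0 to 42.4 CPM in all libraries. Cd79a, a part of the B cell receptor chosen after its values were seen, was 20, 3.15 and 2.20 CPM in Control and 7.94, 24.2 and 41.3 CPM in the treated-labelled libraries. The part of B cells in these values was not tested.

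Other markers also varied between libraries of 1 group. The 8 neutrophil markers summed to 1100 CPM in Control replicate 1, 184 CPM in the mean of replicates 2 and 3, and 267, 2582 and 3564 CPM in the treated-labelled libraries. S100a9 held 41.5% of their counts. It was 457, 85.0 and 78.3 CPM in Control and 107, 1060 and 1487 CPM in the treated-labelled libraries, and Ltf had at most 1 count. The 6 adipocyte markers summed to 493 CPM in Control replicate 1 and 90.7 CPM in the mean of replicates 2 and 3, against 1075, 1726 and 797 CPM in the treated-labelled libraries. Fabp4 held 47.7% of these. It was 239, 47.3 and 52.5 CPM in Control and 544, 757 and 398 CPM in the treated-labelled libraries, without overlap (log2 fold change 1.97 ± 0.72 (SE), adjusted p = 0.175).

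The 7 endothelial markers summed to 558 CPM in Control replicate 1 and 665 CPM in the mean of replicates 2 and 3. They summed to 416, 486 and 485 CPM in the treated-labelled libraries. Pecam1 held 36.0% of their counts and was 195, 276 and 267 CPM in Control and 135, 148 and 163 CPM in the treated-labelled libraries (log2 fold change −0.66 ± 0.19 (SE), adjusted p = 0.114). For the neutrophil, adipocyte, endothelial and disc lists, edgeR called 0 of 7, 6, 7 and 7 tested markers, with 0, 4, 4 and 0 at an unadjusted p under 0.05. limma-voom likewise called 0 in each, and DESeq2 called 4 adipocyte markers higher, 3 endothelial markers lower and 0 in the other lists. In the same order, the 4 lists had median log2 fold changes of 1.71, 2.40, −0.44 and 0.48. Without Control replicate 1 these medians were 3.70, 4.17, −0.57 and 0.12. Without Control replicates 2 and 3 they were 0.94, 1.60, −0.31 and 0.88. The part of these cell types in the class II values was not tested.

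The profile of Cd74 over the 5 distinct samples was compared with 10054 other genes of a mean log2 CPM of at least 3. The measure was the root mean square difference of log2 CPM after each gene's mean was removed. The nearest genes were Mthfd2 at 0.04, Exo5 at 0.06, Ppp2r5b at 0.08, Cdc25a at 0.09 and Hccs at 0.09. The 8 class II genes were left out of this ranking, and with 5 samples many genes can lie this near. Among the class II genes, RT1-Da lay at 0.16, RT1-DMa at 0.22, RT1-DMb and Ciita each at 0.31 and RT1-Db1 at 0.44. RT1-Bb at 0.96 and RT1-Ba at 1.56 lay farthest.

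The mean profile of the 6 RT1 chains carried the high values of treated-labelled replicate 3. Its nearest genes were Rpl30l2 at 0.15, Lig4 at 0.17, Wdr91 at 0.21, Rn45s at 0.21 and the class I gene RT1-A1 at 0.22. Rpl30l2 was 210, 176 and 176 CPM in Control and 107, 201 and 421 CPM in the treated-labelled libraries, with replicate 3 the highest and replicate 1 the lowest.

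Promoter sequences are shown because the 6 RT1 chains share a regulator. RefSeq promoters on build GRCr8, with 250 bases before and 50 after each start, matched 6 of the 8 genes. Ciita and RT1-DMb had no entry. Letters of the Y box (TGATTGG, bound by NF-Y) and of the X box (ACNGATG, bound by RFX) were searched on both strands, and they were chosen with these sequences in view. The first occur in 7.06% and the second in 10.2% of 33469 promoters of the same length, and 0.726% hold both. RT1-Da, RT1-Db1, RT1-Bb and RT1-DMa held both, with 20 or 21 bases between them. RT1-Ba held the Y letters alone, and Cd74 held neither set. Only exact matches of these letters were counted, so their absence does not show that a promoter lacks either box. The windows of 80 bases run 5′ to 3′ on the strand of the gene, with the searched letters in capitals. They lie on chromosome 20 at chr20:4515316-4515395 (plus strand, RT1-Da), chr20:4560212-4560291 (minus strand, RT1-Db1), chr20:4576967-4577046 (plus strand, RT1-Ba), chr20:4604149-4604228 (minus strand, RT1-Bb) and chr20:4712370-4712449 (minus strand, RT1-DMa).
RT1-Da: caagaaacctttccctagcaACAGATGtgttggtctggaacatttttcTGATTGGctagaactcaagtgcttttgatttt
RT1-Db1: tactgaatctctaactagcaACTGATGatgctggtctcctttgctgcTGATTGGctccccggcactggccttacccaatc
RT1-Ba: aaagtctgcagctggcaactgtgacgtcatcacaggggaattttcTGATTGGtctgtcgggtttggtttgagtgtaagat
RT1-Bb: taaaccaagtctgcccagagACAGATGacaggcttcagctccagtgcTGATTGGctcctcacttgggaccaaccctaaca
RT1-DMa: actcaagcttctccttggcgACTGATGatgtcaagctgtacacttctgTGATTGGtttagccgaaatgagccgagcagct
The matches describe these reference sequences, and the sequences of the animals sampled were not analysed here.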

How the data were processed

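The authors deposited raw counts per gene, and the submitters' notes name FastQC, Trimmomatic, HISAT2, featureCounts and DESeq2 without versions. The notes list the mouse build mm10, although the gene identifiers are those of the rat, so the build is uncertain. The columns of the table were matched to the samples by their names alone. Genes were taken by name, and no listed name had more than 1 row. The class II genes and all lists were chosen with earlier results of these data known.

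Counts were fitted with the quasi-likelihood test of edgeR 4.0.16 in R 4.3.3, after the filterByExpr filter at a minimum count of 10, with TMM factors and Benjamini-Hochberg adjustment over all genes tested. Control replicates 2 and 3 were summed. The common biological coefficient of variation was 0.302. Standard errors were derived from the F statistic. CPM per library used factors from the 6 libraries, and profiles used log2 CPM with a prior count of 2. Control means take the mean of replicates 2 and 3 as 1 value. DESeq2 1.42.0 and limma-voom (limma 3.58.1) were alternatives, and the fits were tested on simulated data.

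Named from each list were the called genes and the gene with the most counts, for marker lists also those at 0, and the 5 genes nearest in profile. Floors and counting noise cover counting error alone. The methods name 3 animals per group.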

Additional observations from a re-analysis of the deposited data

How the results depend on the processing

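The number of class II genes called stayed at 0 lower and 0 higher in each of 17 alternatives. These were other normalisations, filters, tools, a fold threshold, the handling of the Control pair, a replicate block and each distinct sample left out. Their median log2 fold change ranged from −0.41 to −0.13. Cd74, RT1-Da, RT1-Db1, RT1-Ba, RT1-DMa and RT1-DMb kept their sign in the 16 alternatives that gave a fold change, but not their size. With 1 distinct sample left out, log2 fold changes ran from −0.56 to −0.19 for Cd74, −0.81 to −0.41 for RT1-Da, −0.80 to −0.07 for RT1-Db1, 0.16 to 2.82 for RT1-Ba, −0.71 to −0.14 for RT1-DMa and −1.01 to −0.43 for RT1-DMb. RT1-Ba was 1.25 with limma-voom and 1.17 with the replicate block. Ciita turned from −0.03 to 0.028 with 6 libraries kept, 0.12 with Control replicate 3 dropped, 0.12 without Control replicate 1 and 0.06 without treated-labelled replicate 3, and was −0.18 without Control replicates 2 and 3. RT1-Bb turned from 0.90 to −0.31 without treated-labelled replicate 3 and was 1.26 without replicate 1, 0.50 with limma-voom and 0.50 with the replicate block. The causes were not tested.

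Over all genes, 400 were called lower and 175 higher. With 6 libraries kept these were 1494 and 1233, and DESeq2 gave 1440 and 1132. With 1 distinct sample left out they ranged from 0 to 215 lower and from 0 to 65 higher. They were 215 and 65 without Control replicate 1, 3 and 0 without Control replicates 2 and 3, and 83 and 30 without treated-labelled replicate 1. Without treated-labelled replicate 2 or 3 they were 0 and 0, where 3109 and 2699 genes had an unadjusted p under 0.05. Where Control replicate 1 or replicates 2 and 3 were left out, the lone Control sample is assumed to vary like the treated-labelled ones. The endosomal proteases called lower, an alternative added after seeing the data, numbered 3, and 7 with 6 libraries kept, 7 with DESeq2 and 0 with any 1 sample left out.

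The replicate block, with 6 libraries kept, called 434 lower and 307 higher, 0 class II genes and 2 endosomal proteases. These 2 were Lgmn and Ctsd, and the call of Ctsz was lost. Ciita had a log2 fold change of 0.049 with the block. Same-numbered libraries did not deviate together (correlation across genes −0.33, −0.28 and −0.08), so the numbers are not a pairing.

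With 2 Control samples, intervals are wide, and a gene that misses the threshold is not shown to be equal between groups.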
